A study of Mus musculus with 10 samples.

Results

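Genes of the type I interferon response were followed in murine leukaemia cells after Meis1 was reduced. The list held 38 genes chosen by name for their place in this pathway, and each was read from its brightest probe set, the one with the highest mean over all 10 arrays among those with a single gene symbol. On this rule 36 of the 38 were measured, among 18193 genes on the array. The probe set for Isg15 also carries the symbol of another gene, so Isg15 was not analysed here, and neither was Ifi44. The cells are murine Mll-AF9 leukaemia cells, labelled 4166, grown in IMDM medium with 2 ng/ml interleukin 3 and 15% serum (FBS). The 5 control samples had received an empty lentiviral vector and the 5 others a lentivirus with 1 shRNA construct against Meis1, and all 10 were selected with puromycin and collected at 48 h. The labels pair them by sample number. Both groups were transduced and selected, so no sample shows the cells without virus or puromycin, and effects of the hairpin or its virus cannot be told apart from those of the loss of Meis1. Whether the 5 samples of a group are separate cultures is not stated in the labels, and the p-values cover the spread among them, technical or not.

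Type I interferons bind a receptor made of Ifnar1 and Ifnar2, whose kinases Jak1 and Tyk2 activate STAT proteins. Stat2, a STAT partner and Irf9 form a complex that binds the interferon-stimulated response element (ISRE) in promoters and switches on antiviral genes such as the Ifit, Oas and Mx families. RNA sensors of the RIG-I family (Ddx58, Ifih1) and the factors Irf3 and Irf7 act upstream, since they induce interferon itself, and Irf7 is in turn induced by it. Double-stranded RNA, and in some settings short hairpin RNA, can start this response.

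The ISRE core, searched on both strands as GAAA, any 2 bases and GAAA again, is shown for a few members that have it. Promoters ran from 250 bases before to 50 bases after each start site, from RefSeq on GRCm38.p6, and 31 of the 38 members had an entry. Those without one were Usp18, Oas2, Mx1, Mx2, Rtp4, Parp14 and Dhx58. The pattern stood in 14 of the 31, or 45.2%, against 3.99% of 27025 genes with a promoter in the table and 3.44% of all 32851 promoters. Ifit2, Oasl1, Oasl2 and Irf7 were among the members with an entry and without the pattern. Each line below is written 5′ to 3′ on the gene's strand with matches in capitals, so a match on the opposite strand reads TTTC, 2 bases and TTTC. The capitals of Irgm1 and of Bst2 hold 2 overlapping matches each.
Ifit1: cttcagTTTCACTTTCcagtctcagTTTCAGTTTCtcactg
Ifit3: agtctgTTTCAGTTTCtacttt
Gbp2: ttttagTTTCACTTTCactgtc
Stat2: ccctggTTTCAGTTTCctttcc
Igtp: ggaactGAAACTGAAAgctgtt
Irgm1: tttcaaGAAATAGAAACCGAAActgatt
Bst2: ttccagGAAAATGAAACTGAAAggctgc
The Ifit1 window lies at chr19:34640779-34640819 on the plus strand and holds 2 separate matches. The Ifit3 window shown lies at chr19:34583401-34583422 (plus), and a further match, TTTCACTTTC, stood in a window not shown at chr19:34583367-34583388. The Gbp2 window lies at chr3:142620598-142620619 (plus). The Stat2 window lies at chr10:128270270-128270291 (plus), that of Igtp at chr11:58199516-58199537 (plus), that of Irgm1 at chr11:48871429-48871456 (minus) and that of Bst2 at chr8:71537581-71537608 (minus). The match TTTCAGTTTC stood in Ifit1, Ifit3 and Stat2, and its reverse complement GAAACTGAAA in Igtp and Bst2. A match is a pattern of letters and not a measured binding site.

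Before the members are described, a few facts bear on the arrays. Meis1 on log2 scale read 8.63, 8.69, 8.21, 8.38 and 8.18 in controls 1 to 5 and 7.59, 7.79, 6.99, 7.15 and 7.13 in the matching shRNA samples. It was 2.13-fold lower (log2 change -1.09, SE 0.08, adjusted p = 0.000636 by limma), with no overlap of the groups. Of 9 measured markers of myeloid leukaemia cells, 8 had a mean log2 level above 5. With the shRNA 3 of the 9 passed as lower, namely Kit (-0.78), Elane (-0.40) and Ptprc (-0.35), where 4.06% of all genes passed. Another 4 of the 9 had changes above 0 without passing: Itgam (0.45), Spi1 (0.33), Cebpa (0.26) and Csf1r (0.18). Of 9 macrophage markers Adgre1 passed as higher (0.65) and the other 8 did not pass. The change was above 0 in 7 of the 9 and below 0 in 2, with Cd68 at -0.04. At an unadjusted p under 0.05 by limma there were 3 of the 9, against 18.0% of all genes. Markers of plasmacytoid dendritic cells, a strong source of interferon, averaged 3.42 to 3.63 in controls and 3.44 to 3.79 with the shRNA over 8 genes. Of these 8, Tcf4, a factor also found in other blood cells, had a level of 9.97 and was the 1 above a log2 level of 5, while Siglech, a defining surface marker, stood at 2.34. None of the 8 passed. The mean over the 9 macrophage markers ran from 3.54 to 3.92 in controls and from 3.85 to 3.92 with the shRNA. The 6 lymphoid markers, the 4 erythroid ones and the 6 of fibroblasts and stroma were all below a log2 level of 5, and none of them passed. The ratio of 3 prime to 5 prime signal, a measure of RNA integrity, was 0.28 ± 0.06 in controls against 0.37 ± 0.02 in shRNA samples on the log2 scale (SD, n = 5 each). It was higher in all 5 pairs (exact two-sided sign-flip permutation p = 0.0625, the smallest that 5 pairs allow). The part of the myeloid and macrophage markers in the results was not tested, and values fitted with the ratio as a covariate are given where they bear on a call.

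The Ifit, Oas and Mx members gave little signal in either group, while the receptors and several factors that sense or relay the signal were well measured. Of the 36 members, 11 had a mean log2 level above 5, or 30.6%, against 36.9% of all genes. These 11 were Irgm1, Bst2, Ifi35, Eif2ak2, Adar, Trim25, Ifnar1, Ifnar2, Irf1, Irf2 and Irf3. For comparison, 3 bacterial control probe sets (Trpn) that no sample should hold averaged 1.90 to 1.98. Probe sets differ in how brightly they read a given amount of RNA, so these levels give no order of abundance between genes. In bulk samples, fewer cells of a kind and less RNA per cell cannot be told apart.

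Meis1 knockdown went with almost no called change in these genes. By limma on the pairs, with p-values adjusted by Benjamini-Hochberg over 18193 genes at a threshold of 0.05, 1 of the 36 members fell, none rose and 35 did not pass. Of all genes, 4.06% passed, 2.98% as lower and 1.08% as higher, so the members' count lay near that background. The median log2 change of the members was -0.01, against 0.00 for all genes, and the median size regardless of sign was 0.15 against 0.11. The change was above 0 in 15 members and below 0 in 21. At an unadjusted p under 0.05 there were 6 members, against 18.0% of all genes. All 36 had a 95% interval of the change that lay inside a log2 change of -1 to 1, as did 17855 of 18193 genes, and the intervals reached from -0.73 (Irf2) to 0.78 (Xaf1). For a probe set near background this bounds the change in signal only, because RMA compresses changes there.

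**Figure D1:**
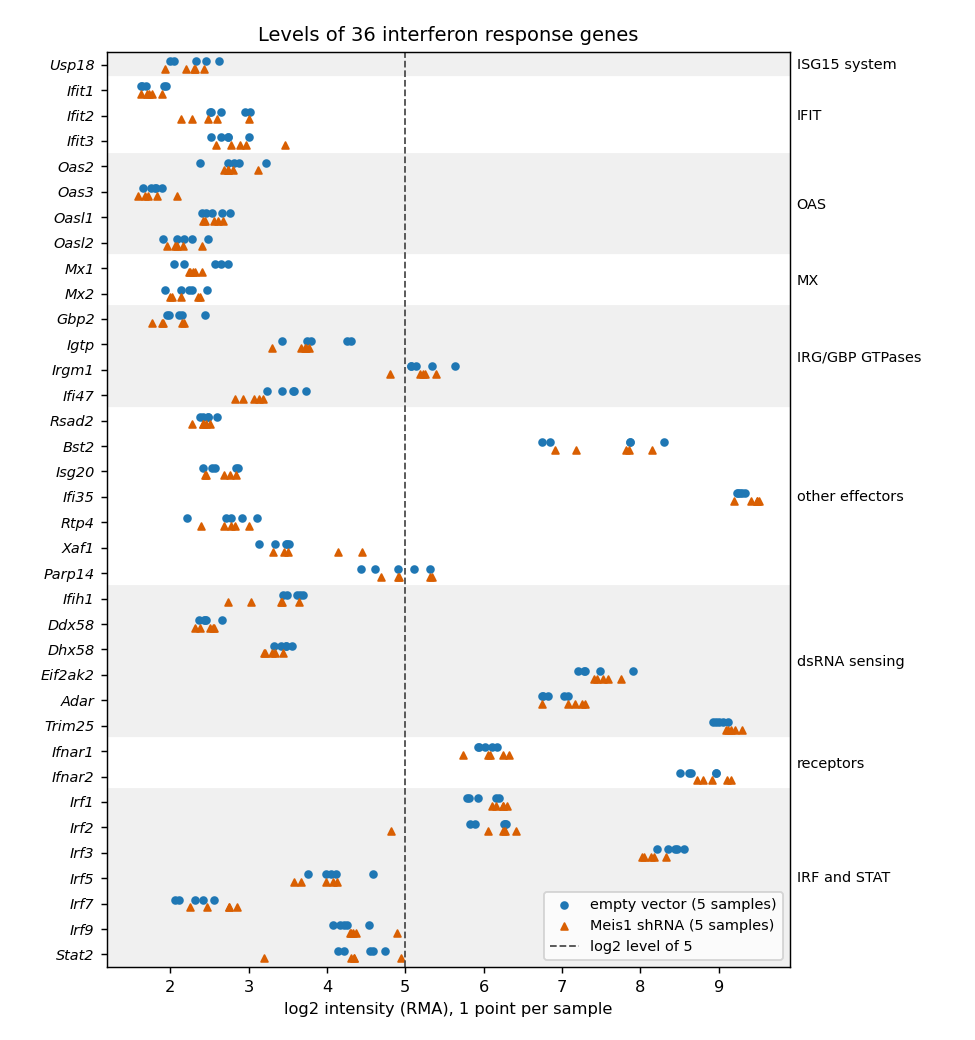
The log2 intensity of the 36 measured genes (x axis) in each of the 10 samples, with 5 empty vector samples as circles and 5 shRNA samples as triangles, grouped by role. The Ifit, Oas and Mx genes lie left of the dashed line at a log2 level of 5 in every sample, and the receptors lie right of it.

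**Figure D2:**
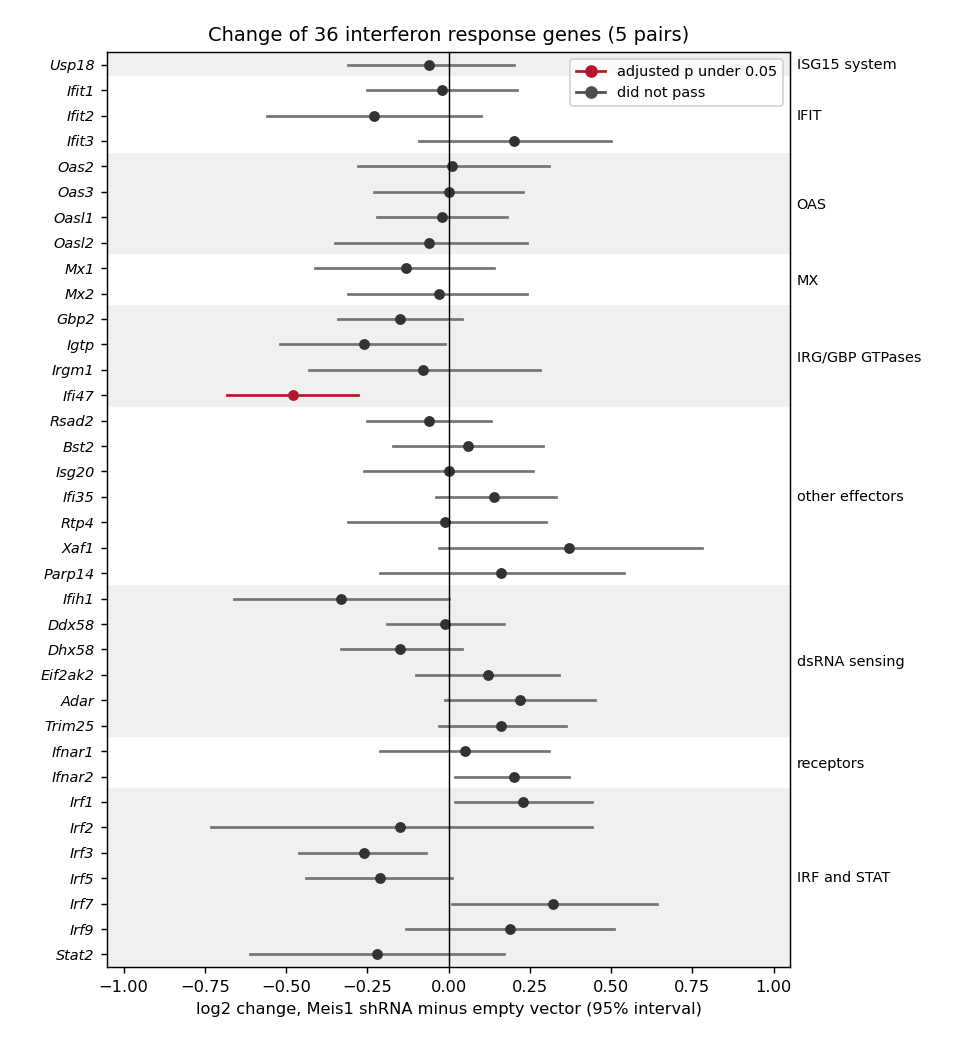
The log2 change, shRNA minus empty vector, of each of the 36 genes with its 95% interval from the paired limma fit. Ifi47, at -0.48, is the gene past the threshold, and all intervals lie between -0.73 and 0.78.

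The receptor chains were measured in every sample. Ifnar1, the chain bound by Tyk2, read 6.17, 5.94, 6.01, 5.93 and 6.11 in controls 1 to 5 and 6.08, 6.32, 5.73, 6.24 and 6.05 with the shRNA. The shRNA samples spanned the whole control range and the log2 change was 0.05 (SE 0.11, 95% interval -0.21 to 0.31, adjusted p = 0.873 by limma). Ifnar2, the chain that Jak1 binds, read 8.51, 8.62, 8.97, 8.96 and 8.65 in the controls and 8.80, 8.91, 9.10, 9.16 and 8.72 with the shRNA. Each shRNA sample was above its own control, by 0.08 to 0.29, but the groups overlapped and the change of 0.20 (SE 0.08) did not pass (adjusted p = 0.232). The dimmer probe sets of Ifnar2 gave 0.37 and 0.21, also without passing (adjusted p = 0.231 and 0.325 over all probe sets).

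Among the transcription factors, none of the 7 members passed. Irf3, which is activated by the RNA and DNA sensors and induces interferon beta, read 8.47, 8.55, 8.21, 8.35 and 8.44 in the controls. With the shRNA it read 8.33, 8.02, 8.04, 8.13 and 8.17. It was below its control in all 5 pairs, though shRNA sample 1 lay above control 3, and the change was -0.26 (SE 0.09, adjusted p = 0.15 by limma). When only the 6721 genes above a log2 level of 5 were tested, the same change had an adjusted p of 0.045, where 1305 of them passed. As the mean of its 4 probe sets Irf3 changed by -0.12. The next brightest probe set, at a mean level of 4.68, changed by -0.30 without passing (adjusted p = 0.379 over all probe sets by limma). The dimmest, at 3.17 and 2.30, changed by 0.03 and 0.04. The same direction in all 5 pairs was seen in 6 of the 36 members, against 17.8% of all genes.

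Irf1, an early activator induced mainly by interferon gamma, read 5.79, 5.81, 6.16, 5.93 and 6.20 in the controls. The shRNA samples read 6.24, 6.10, 6.16, 6.24 and 6.30, 3 of them above the highest control. Pair 3 differed by 0.00 after rounding, and the change of 0.23 (SE 0.09) did not pass (adjusted p = 0.227 by limma). Irf7, the factor that amplifies interferon production, was dim, at 2.31, 2.56, 2.41, 2.11 and 2.06 in the controls. With the shRNA it read 2.75, 2.25, 2.85, 2.47 and 2.75, above the control in 4 of 5 pairs and below it in pair 2. The groups overlapped, and the change of 0.32 (SE 0.14) did not pass (adjusted p = 0.261).

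Stat2, the STAT that is particular to interferon complexes, read 4.59, 4.21, 4.55, 4.74 and 4.14 in the controls and 4.31, 3.19, 4.34, 4.95 and 4.34 with the shRNA. shRNA sample 2 was lowest, 1.02 below its control, and the other pairs differed by -0.28 to 0.21 (change -0.22, SE 0.17, adjusted p = 0.583 by limma). Its partner Irf9, at a mean of 4.34, changed by 0.19 (adjusted p = 0.554). Irf5, a factor of myeloid cells downstream of Toll-like receptors, changed by -0.21 (adjusted p = 0.302). Irf2, which can oppose Irf1 at shared sites, read 5.82 to 6.29 in the controls and 6.05 to 6.41 in 4 shRNA samples, with 4.82 in shRNA sample 5. Its change was -0.15 with the largest SE of any member, 0.25 (adjusted p = 0.833), and 0.18 without pair 5.

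The sensors of double-stranded RNA and the proteins that answer to it did not pass, 3 of the 6 above 0 and 3 below. Ifih1, the sensor MDA5 for long double-stranded RNA, read 3.49, 3.44, 3.62, 3.65 and 3.69 in the controls and 3.64, 3.03, 3.41, 3.42 and 2.74 with the shRNA. It was lower in 4 of 5 pairs, most in pair 5 (-0.95), with a change of -0.33 (SE 0.14, adjusted p = 0.278 by limma). Ddx58, the sensor RIG-I, averaged 2.47 and changed by -0.01, and Dhx58, their regulator LGP2, averaged 3.37 and changed by -0.15. Adar, which edits adenosine to inosine in double-stranded RNA, read 6.75, 6.82, 6.74, 7.07 and 7.03 in the controls and 7.26, 6.74, 7.08, 7.29 and 7.16 with the shRNA. It was above its control in 4 of 5 pairs with overlapping groups (change 0.22, SE 0.10, adjusted p = 0.29). Eif2ak2, the kinase PKR that halts translation, changed by 0.12 (adjusted p = 0.606), and Trim25, a ubiquitin ligase that helps RIG-I signal, by 0.16 (adjusted p = 0.369).

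The Ifit, Oas and Mx members, Usp18, Rsad2 and Isg20 lay low in both groups. Ifit1, which binds foreign RNA lacking a host-type cap, read 1.94, 1.64, 1.63, 1.69 and 1.92 in the controls and 1.73, 1.70, 1.89, 1.77 and 1.62 with the shRNA. All 10 values lay within or below the range of the Trpn means, and the change was -0.02 (SE 0.10, adjusted p = 0.948 by limma). Ifit2, a family member linked to cell death, read 2.52, 2.65, 2.51, 3.02 and 2.95 in the controls and 2.48, 2.28, 2.59, 2.14 and 3.00 with the shRNA. Its change of -0.23 (SE 0.14, adjusted p = 0.468) came mostly from pair 4, at -0.88. Ifit3, which stabilises Ifit1 complexes, changed by 0.20 (adjusted p = 0.473). The 4 genes of the Oas group, whose namesake enzymes make the signal that activates RNase L, changed by -0.06 to 0.01 at mean levels of 1.78 to 2.81. The Mx GTPases, which trap viral nucleoproteins, had means of 2.37 (Mx1) and 2.19 (Mx2) and changes of -0.13 and -0.03. Usp18, which removes Isg15 from proteins and damps the receptor, had a mean of 2.26 and a change of -0.06. Rsad2, the antiviral enzyme viperin, had a mean of 2.44 and a change of -0.06, and the exonuclease Isg20 a mean of 2.64 and no change to 2 decimals.

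The remaining effectors ranged from dim to bright. Ifi35, which binds Nmi, changed by 0.14 from 9.28 ± 0.04 to 9.42 ± 0.13 (SD, n = 5; adjusted p = 0.417 by limma). Xaf1, a proapoptotic partner of the inhibitor XIAP, had the largest increase among the members. It read 3.48, 3.13, 3.49, 3.34 and 3.52 in the controls and 3.50, 3.45, 4.14, 4.44 and 3.31 with the shRNA. shRNA samples 3 and 4 were high and the other 3 lay within the control range, so the change of 0.37 (SE 0.18) did not pass (adjusted p = 0.313), and the dimmer Xaf1 probe set changed by -0.02. Parp14, a mono-ADP-ribosyltransferase, changed by 0.16 (adjusted p = 0.686), and Rtp4, a chaperone of receptor transport with a mean level of 2.74, by -0.01 (adjusted p = 0.992).

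Bst2, the tetherin that holds budding viruses at the cell surface, differed far more between pairs than between groups. It read 6.74, 6.85, 8.30, 7.87 and 7.87 in controls 1 to 5 and 7.18, 6.91, 8.15, 7.81 and 7.85 with the shRNA. Samples 1 and 2 were low in both groups and samples 3 to 5 high, so that the pair means spanned 1.34 on the log2 scale, the widest span of any member, followed by Stat2 at 1.14. Some other genes had the same split of pair means, with no count made over all genes. Elane, a protease of immature myeloid cells, was at 10.24 and 10.09 in pairs 1 and 2 and at 11.49 to 11.64 in the rest. Adgre1, a macrophage marker, was at 7.66 and 7.58 against 8.59 to 8.89, and Ifitm3, a membrane protein that blocks virus entry, at 10.56 and 10.48 against 11.79 to 11.99. Cd68, the other macrophage marker above a log2 level of 5, did not have this split, at 8.54 and 8.72 against 8.42 to 8.89. Irf8, from the list of other interferon-stimulated genes, had the reverse split, at 8.93 and 9.05 in pairs 1 and 2 against 8.11 to 8.36. The part of these genes in the Bst2 levels was not tested. The change with the shRNA was 0.06 (SE 0.10, 95% interval -0.17 to 0.29, adjusted p = 0.833 by limma).

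**Figure D3:**
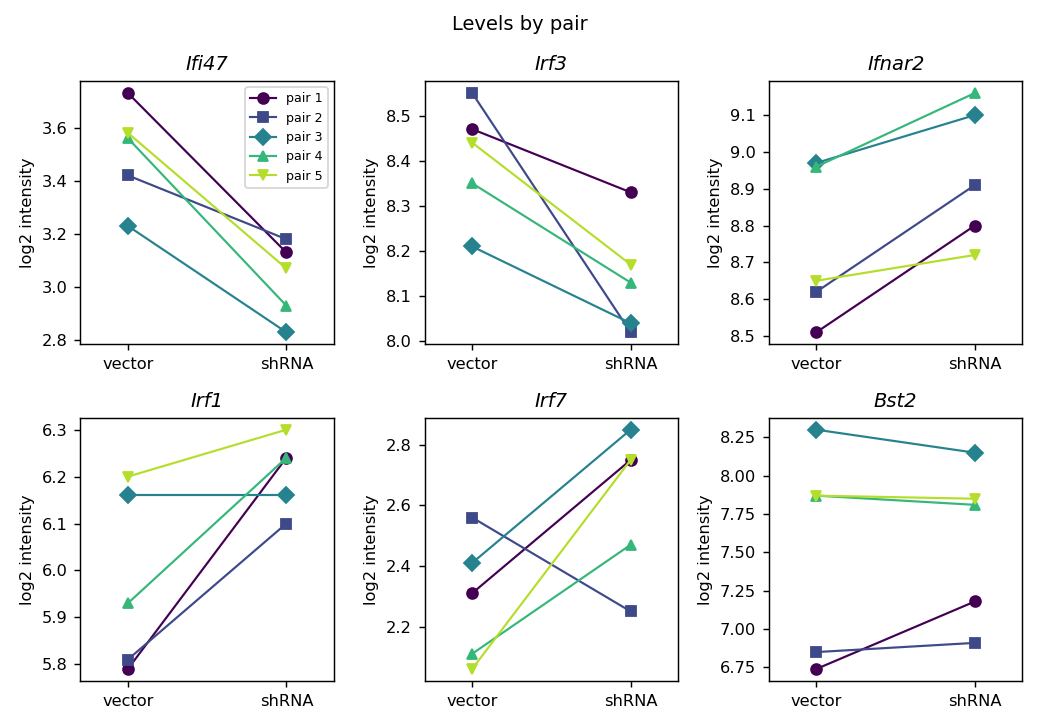
The log2 intensity of 6 genes in the empty vector and shRNA sample of each pair, with a line per pair and a separate y axis per panel. Ifi47 and Irf3 fall along each line, Ifnar2 climbs along each, and for Bst2 the lines of pairs 1 and 2 lie below those of pairs 3 to 5.

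Ifi47, an interferon-inducible GTPase of the IRG family that guards against intracellular pathogens, was the member that fell. Its log2 level was 3.73, 3.42, 3.23, 3.56 and 3.58 in controls 1 to 5 and 3.13, 3.18, 2.83, 2.93 and 3.07 with the shRNA. Every shRNA sample lay below every control sample, a lack of overlap seen in 4.98% of all genes. The level was 1.39-fold lower (log2 change -0.48, SE 0.09, 95% interval -0.68 to -0.28, adjusted p = 0.0231 by limma), with pair differences of -0.60, -0.24, -0.41, -0.63 and -0.51. On the linear scale this was an intensity of 11.4 ± 1.45 against 8.19 ± 0.816 (SD, n = 5), which is dim. The gene (Entrez gene 15953, chromosome 11) has 1 probe set. Leaving out pair 1, 3 or 4 ended the call (adjusted p = 0.0955, 0.0709 and 0.104). In a fit that also held the ratio of 3 prime to 5 prime signal it was -0.36 (SE 0.16, adjusted p = 0.807). The ratio was higher with the shRNA in all 5 pairs, so this fit can hardly tell the 2 apart. Only 2 of all 18193 genes passed in it.

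The other members of that GTPase group, all induced strongly by interferon gamma, also had changes below 0, but none passed, and for Irgm1 and Gbp2 the direction was not kept. Irgm1 turned to 0.06 after quantile normalization and to 0.11 without pair 1. Averaged over its probe sets Gbp2 changed by 0.00, the dimmer probe set by 0.16. Igtp, also named Irgm3, read 4.26, 4.30, 3.79, 3.74 and 3.42 in the controls and 3.67, 3.77, 3.73, 3.72 and 3.30 with the shRNA. It was lower in all 5 pairs, by 0.59 and 0.52 in pairs 1 and 2 and by at most 0.12 in the rest, and the change was -0.26 (SE 0.11, adjusted p = 0.259 by limma). Irgm1, a regulator of the other IRG proteins, went from 5.25 ± 0.24 to 5.17 ± 0.22 (SD, n = 5; change -0.08, adjusted p = 0.861). Gbp2, a guanylate-binding protein, was dim, at 2.13 ± 0.19 and 1.98 ± 0.18 (SD, n = 5; change -0.15, adjusted p = 0.399). Ifi47, Igtp and Irgm1 all lie on chromosome 11.

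The promoter of Ifi47 in the RefSeq table is shown because it belongs to the member that fell. The 250 bases before its start site lie at chr11:49076337-49076586 on the plus strand of GRCm38.p6 and read, in lower case as no pattern is marked:
Ifi47: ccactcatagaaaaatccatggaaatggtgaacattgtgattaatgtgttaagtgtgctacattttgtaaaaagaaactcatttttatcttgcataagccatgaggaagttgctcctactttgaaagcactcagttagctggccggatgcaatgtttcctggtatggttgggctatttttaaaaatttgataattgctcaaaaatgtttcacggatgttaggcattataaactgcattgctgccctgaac
Neither the ISRE core nor TTCNNNGAA, the core of the interferon gamma activated site (GAS, searched on both strands), stood in its promoter from the table, which says only that those letters are not in this window. The GAS core stood in 11 of the 31 members with a promoter entry, or 35.5%, against 9.55% of all genes in the table. Irf1 had it 90 to 82 bases before the start site, as TTCCCCGAA, and Igtp 45 to 37 bases before, as TTCTAGGAA. Of 13 measured members with an ISRE core, 4 had a mean log2 level above 5, and of 16 measured members with a promoter entry and no such core, 7 did. For the GAS core the counts were 8 of 11 with it and 3 of 18 without it, as a description only.

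Other genes of the pathway, from 4 lists that do not hold the members, also mostly did not pass. Of 84 such genes 76 were measured, and 3 rose, none fell and 73 did not pass, where 1.08% of all genes rose and 2.98% fell. Their median change was 0.03, with 41 above 0. In the receptor-proximal list 1 of 13 rose. This was Socs3, the feedback inhibitor of JAK-STAT signalling, at 3.75, 3.29, 4.95, 4.65 and 4.07 in the controls and 4.01, 4.15, 5.66, 5.29 and 4.68 with the shRNA. Samples differed widely between pairs, and each shRNA sample was above its control (change 0.62, SE 0.10, adjusted p = 0.0141 by limma). Jak1 (-0.15, adjusted p = 0.526) and Tyk2 (0.30, adjusted p = 0.177) did not pass, although the Tyk2 groups did not overlap.

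Of 15 measured genes of nucleic acid sensing none passed by limma, with 1 at an unadjusted p under 0.05. The gene was Cgas, the DNA sensor that makes cyclic GMP-AMP, which changed by -0.67 (SE 0.16, adjusted p = 0.0631), and was named after its values were seen. It read 5.83, 5.23, 5.59, 5.86 and 5.66 in the controls and 4.78, 5.15, 5.12, 4.61 and 5.18 with the shRNA, with no overlap. Without the replicate block its adjusted p was 0.032, and with the block as a random effect 0.0207. With the fixed block, the mean of probe sets, median centring, a filter on dim genes, array weights, and trend and robust eBayes gave 0.0186 to 0.0492. It did not pass with quantile normalization (0.121), adjustment over all probe sets (0.0784) or any pair left out (0.0576 to 0.199). With the signal ratio in the fit the change was -0.15 (SE 0.22, adjusted p = 0.955). Sting1, the adaptor that answers to cyclic GMP-AMP, changed by -0.12 (adjusted p = 0.575).

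Of 6 interferon and chemokine genes none passed by limma, with 2 at an unadjusted p under 0.05, and all 6 had mean log2 levels below 5. The change was above 0 in 5 of the 6. The genes at an unadjusted p under 0.05 were Cxcl9, a chemokine that draws T cells (0.35, SE 0.09, adjusted p = 0.0813), and Ifna4, an interferon alpha (0.30, SE 0.08, adjusted p = 0.0872). Both were higher in all 5 pairs with overlapping groups, at mean levels of 2.75 and 1.88, and were named after their values were seen. The Ifna4 mean lay below the Trpn means of 1.90 to 1.98. Interferon beta itself, Ifnb1, had a control level of 2.57 ± 0.22 and a level of 2.75 ± 0.39 after shRNA (SD, n = 5; change 0.18, adjusted p = 0.648). Among 42 other interferon-stimulated genes 2 rose, and 52.4% had a mean log2 level above 5. Bright ones, named after their values were seen, included the virus entry blockers Ifitm1 (13.06, change -0.02, adjusted p = 0.948), Ifitm2 (11.49, change 0.06, adjusted p = 0.818) and Ifitm3 (11.33, change 0.21, adjusted p = 0.344). Oas1a, a further Oas gene, had a level of 6.38 and changed by 0.23 (adjusted p = 0.176). Ifi27, a small hydrophobic interferon-induced protein, read 7.59, 7.23, 7.98, 7.37 and 6.03 in the controls and 8.22, 8.10, 8.31, 8.51 and 6.39 with the shRNA. Sample 5 was low in both groups, and the change was 0.67 (SE 0.13, adjusted p = 0.0271). Lgals3bp, a secreted glycoprotein that binds galectin 3, read 6.88, 6.97, 6.61, 6.88 and 6.10 in the controls and 7.38, 7.34, 7.13, 7.19 and 6.35 with the shRNA. It was higher in all 5 pairs, with sample 5 again lowest in both groups (change 0.39, SE 0.08, adjusted p = 0.038).

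The calls of Socs3, Ifi27 and Lgals3bp rest on the pairing. Without the replicate block their adjusted p was 0.487, 0.523 and 0.439 by limma. Leaving out pair 2, 3 or 4 ended the call of Socs3 (largest adjusted p = 0.0681), pair 1, 2 or 4 that of Ifi27 (0.102), and any pair but 5 that of Lgals3bp (0.139). As the mean of its probe sets Socs3 changed by 0.41 (adjusted p = 0.11). Lgals3bp did not pass with arrays centred on their medians (adjusted p = 0.0606) or with adjustment over all probe sets (0.0586). With the signal ratio in the fit the changes were 0.67, 0.33 and 0.36 (SE 0.19, 0.20 and 0.16). None passed there (adjusted p = 0.576, 0.868 and 0.781), in a fit that can hardly tell the ratio and the shRNA apart.

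**Figure D4:**
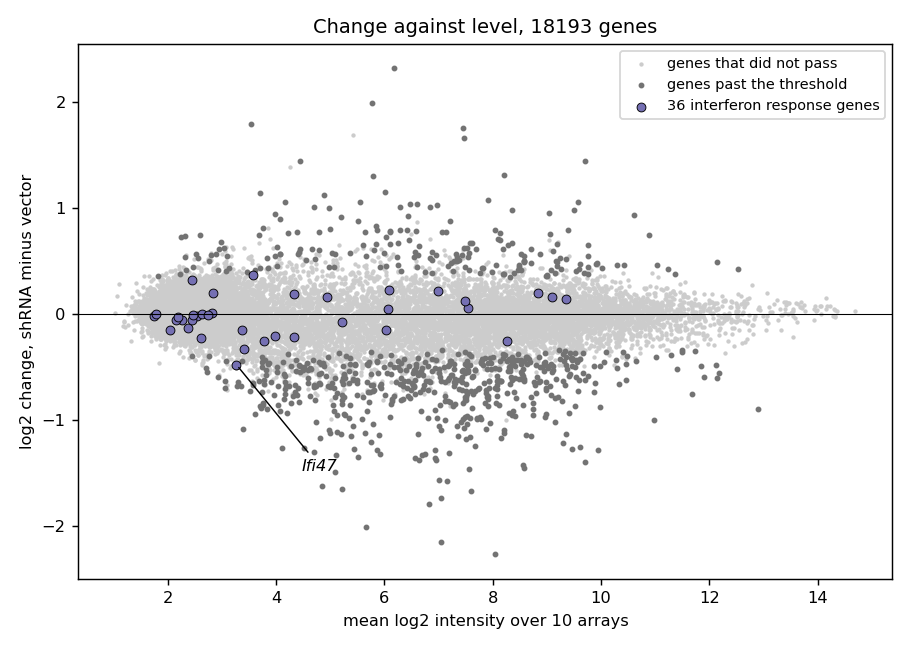
The log2 change, shRNA minus empty vector, of all 18193 genes (y axis) against the mean log2 intensity over 10 arrays (x axis), with genes past the threshold in dark grey. The 36 interferon response genes lie between -0.48 (Ifi47) and 0.37 (Xaf1), while changes over all genes reached from -2.27 to 2.32.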

How the data were processed

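The authors deposited 1 linear intensity per probe set and array, from 1.295 to 32400, made with RMA per the submitters' processing notes. RMA corrects background, normalizes between arrays and summarises probes, and the version run was not given in the sources used here. That the scale is linear was read from the range of the values. Here they were log2-transformed with no pseudocount. Of 45101 probe sets, 64 controls were left out. Of the rest 34945 had 1 gene symbol, 932 several and 9160 none, and the last 2 kinds were left out. Each of 18193 genes was read from its brightest probe set. RefSeq (GRCm38.p6) served for chromosomes, promoters and the names of 2 pathway genes (Sting1, Cgas).

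Groups were compared with limma 3.58.1 in R 4.3.3 (lmFit, eBayes, two-sided, Benjamini-Hochberg over all genes, threshold 0.05), with a fixed block for each sample number, since the labels state that pairing. All log2 changes are shRNA minus control. Over 11215 probe sets above a log2 level of 5, deviations of same-numbered samples correlated at 0.31 to 0.60, and 4 of the 5 numbers correlated best with their own, while 2 correlated best with 1. The fit was run on simulated data in which 200 of 18193 genes had a log2 change of 1 up or down. It recovered 200 of them and called 14 unchanged genes. The members' changes were smaller than that, so the simulation does not tell how often such changes would be called. The number of arrays limits the precision. No detection calls were used.

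The members, gene lists and tests were chosen with earlier results of these data known. Values in every sample are given for members past the threshold, the 8 others with the largest change, and Irf7, Ifit1, Ifnar1, Ifnar2 and Stat2; those of Bst2 and Irf2 were added after their values were seen. Of the other pathway genes, those past the threshold are named beside Jak1 and Tyk2; Sting1 and Ifnb1 were added for their roles, as Cgas and those described as named after their values were seen were for theirs. Alternatives were the mean of probe sets, quantile normalization, median centring, a filter on dim genes, no block, a random block, trend and robust eBayes, array weights, a covariate for the 3 prime to 5 prime ratio, adjustment over all probe sets, and leaving out each pair.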

Additional observations from a re-analysis of the deposited data

Results flagged for a closer look

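In 4 of the 72 sets of 5 samples (36 genes in 2 groups), 1 sample stood apart from the other 4, where chance alone gives about 1 set in 20. Irf2 was at a log2 level of 4.82 in shRNA sample 5, with the other shRNA samples at 6.05 to 6.41. Igtp was at 3.30 in the same sample, with the others at 3.67 to 3.77. Oas2 was at 3.12 there, against 2.69 to 2.80. Irf9 was at 4.89 in shRNA sample 4, against 4.29 to 4.37.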

How the results depend on the processing

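The count of 1 called member held under the 9 settings other than the covariate and leaving out pairs. In the test of genes above a log2 level of 5 the member was Irf3, as Ifi47 was left out there as dim. That was 1 of 11 members tested, where 1305 of 6721 genes passed. In the rest it was Ifi47, 1 of 36, where 500 (no block) to 1497 (trend and robust eBayes) of 18193 genes passed. With a covariate for the 3 prime to 5 prime ratio limma called 0 members, 0 other pathway genes and 2 genes in all. At an unadjusted p under 0.05 there were 3 of 36 members, 8 of 76 other pathway genes and 1173 of all 18193 genes. Leaving out each pair gave 0 to 1 members (0 without pair 1, 3 or 4, with 5, 4 and 3 at an unadjusted p under 0.05), 0 to 4 other pathway genes (0 without pair 2 or 4, with 17 and 20) and 243 to 929 genes. Of all 18193 genes, 2725, 2773, 2827 and 2425 had an unadjusted p under 0.05 without pair 1, 2, 3 and 4. The 3 called pathway genes became 1, Cgas, without the replicate block and 1, also Cgas, with it as a random effect. In those fits Ifi47 had adjusted p of 0.0368 and 0.0178. With the dim filter 8 of 40 pathway genes passed, where 1305 of all 6721 genes tested did. With trend and robust eBayes 8 of 76 passed, where 1497 of 18193 genes did. The split of all calls, 543 lower and 196 higher, was 382 and 309 after quantile normalization. The Ifi47 change was below 0 under all 14 settings that gave it and passed in 10, with adjusted p from 0.0131 to 0.807. With the covariate, the sign turned for 7 of the 36 members, namely Ifit2 (0.19), Xaf1 (-0.21), Ifnar1 (-0.07), Irf9 (-0.13), Eif2ak2 (-0.11), Oasl2 (0.20) and Parp14 (-0.02). With a pair left out Ifit1 ran from -0.09 to 0.05 and Ifnar1 from -0.03 to 0.13. The cause was not tested. Over all 36 members, 44 of 515 values had the opposite sign, in 21 members, none of them called. The ratio itself was higher with the shRNA by 0.07 to 0.11 under every alternative tried.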

Other observations

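Across the members' 62 probe sets, 1 passed when p-values were adjusted over all probe sets by limma, that of Ifi47 (adjusted p = 0.0348). For 16 members with several probe sets the dimmer ones add a few values. A dimmer probe set of Ifi35 went from 6.64 to 7.10 (log2 change 0.47, SE 0.12, adjusted p = 0.102) and another changed by 0.20, beside 0.14 for the brightest. For the kinase Eif2ak2, a second probe set of similar brightness changed by 0.41 (SE 0.14, adjusted p = 0.212), beside 0.12. Its dimmest probe set, at 3.84 in the controls, changed by -0.20. Trim25 gave 0.16 and 0.11 in its brighter probe sets and -0.32 (SE 0.10, adjusted p = 0.15) in one at 4.37 in the controls.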
